A study of Mus musculus with 11 samples.

Results

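A set of 9 genes of cellular zinc handling were followed in intestinal epithelial cells (IECs) that lack Ogt, the enzyme that attaches O-GlcNAc to nuclear and cytosolic proteins. They are the metallothionein genes Mt1 and Mt2, the zinc-sensing transcription factor gene Mtf1, the importer genes Slc39a4, Slc39a5, Slc39a8 and Slc39a14, and the exporter genes Slc30a1 and Slc30a10. Members were taken by symbol from the gene column of the deposited tables, and all 9 were found, each at 1 locus, among 12675 named genes of the ileum and 12831 of the colon. IECs of 10-week-old male mice were released with EDTA and their RNA was sequenced as 11 libraries: 3 of Vil-Ogt KO ileum, 2 of WT ileum, 3 of Vil-Ogt KO colon and 3 of WT colon. Vil-Ogt KO mice carry floxed Ogt and a Cre driven by the Villin promoter, so the gene is deleted in villin-expressing epithelium, while WT mice keep Ogt. Whether the WT mice carry floxed alleles or Cre is not given in the sources used here. Each table holds 1 pooled log2 FPKM value per genotype (FPKM, fragments scaled by transcript length and by the mapped reads of the library). The spread between libraries is not held in these values, so the differences below carry no SD, n or p-value and are given as descriptions. The authors' own q-values in the tables were not used here.

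Zinc enters enterocytes from the gut lumen through importers of the SLC39 (ZIP) family and leaves the cytosol through transporters of the SLC30 (ZnT) family. Metallothioneins are small cysteine-rich proteins that bind zinc and copper. When free zinc rises, the factor MTF-1 binds metal response elements near the metallothionein genes and Slc30a1 and turns them on, and glucocorticoids and inflammatory signals also raise metallothionein mRNA.

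Ogt itself stood at 3.92 FPKM in Vil-Ogt KO and 10.5 FPKM in WT ileum, and at 8.17 FPKM in Vil-Ogt KO and 32.4 FPKM in WT colon, lower in the KO in both tissues as the labels state. The pooled WT ileum value went against its label in part: the small-intestinal genes Slc2a2 and Lct had 24.6 and 3.12 FPKM in Vil-Ogt KO ileum but only 0.0928 and 0.0257 FPKM in WT ileum, and the colonocyte gene Car1 had 170 FPKM in Vil-Ogt KO and 5914 FPKM in WT ileum. Of 17 absorptive enterocyte markers, 16 were more than 2-fold higher in Vil-Ogt KO ileum (summed level 23863 FPKM in Vil-Ogt KO, 2161 FPKM in WT), and 7 of 10 measured colonocyte markers were more than 2-fold lower (543 and 6811 FPKM). All 12 intraepithelial lymphocyte markers were higher in Vil-Ogt KO ileum (621 FPKM in Vil-Ogt KO, 114 FPKM in WT), as were 11 of 13 Paneth cell, 8 of 11 myeloid and 3 of 3 erythrocyte markers, while 6 of 11 goblet cell, 7 of 11 stem and dividing cell and 5 of 7 stromal markers were lower, all past 2-fold. In the colon, 10 of 15 enterocyte, 5 of 7 Paneth cell, 7 of 11 goblet cell and 3 of 3 erythrocyte markers were more than 2-fold higher in Vil-Ogt KO, 4 of 12 lymphocyte markers were more than 2-fold lower (32.7 FPKM in Vil-Ogt KO, 74.0 FPKM in WT), and colonocyte markers split into 3 higher and 3 lower of 12. The remaining colon lists held 1 stem and dividing cell marker lower of 11, 0 of 7 myeloid markers with a value above 0 in both genotypes, and 1 stromal marker higher and 1 lower of 4. In WT ileum, 5 of 11 myeloid and 3 of 3 erythrocyte markers were under 1 FPKM. So were 5 of 15 enterocyte, 2 of 7 Paneth cell, 2 of 12 colonocyte and 1 of 3 erythrocyte markers in WT colon. All of these were counted as higher, and at such levels a ratio is set by few reads. Over all named genes, 15.2% were more than 2-fold higher and 15.0% lower in the ileum, and 7.13% and 8.26% in the colon. No marker was listed at 0 apart from the myeloid markers S100a8 and S100a9 in WT colon. They had 4.76 and 2.6 FPKM in Vil-Ogt KO colon and are not among the 7, as no ratio could be formed. In the ileum values below, a difference of genotype and a difference in the stretch of gut or the cells sampled cannot be told apart, so each is given beside its colon value. The part of cell composition in the values below was not tested, and in bulk RNA fewer cells of a type cannot be told apart from less RNA per cell.

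Metallothionein mRNA was the component that stood out, in both tissues. Mt1 had 3397 FPKM in Vil-Ogt KO and 254 FPKM in WT ileum, a 13.4-fold higher level (log2 difference 3.74). In the colon Mt1 had 1585 FPKM in Vil-Ogt KO and 172 FPKM in WT, 9.19-fold higher (3.20). With this Mt1 was the gene of rank 10 by FPKM among all named genes of the Vil-Ogt KO ileum, against rank 388 in WT ileum, and of rank 34 in the Vil-Ogt KO colon, against rank 548 in WT colon. Mt2 had 452 FPKM in Vil-Ogt KO and 74.5 FPKM in WT ileum, 6.06-fold higher (2.60). In the colon Mt2 had 545 FPKM in Vil-Ogt KO and 61.8 FPKM in WT, 8.82-fold higher (3.14). Both genes were thus higher in the KO by a similar factor in the colon, whereas in the ileum the Mt1 difference exceeded that of Mt2, and the ratio of Mt1 to Mt2 was 7.52 in Vil-Ogt KO ileum against 3.41 in WT ileum (2.91 in Vil-Ogt KO and 2.79 in WT colon). The sum of both genes made up 0.600% of all FPKM in Vil-Ogt KO and 0.0488% in WT ileum, and 0.363% in Vil-Ogt KO and 0.0395% in WT colon. In the ileum 1.26% of named genes, and in colon 0.851%, had a difference at least as large as that of Mt1, and for Mt2 these shares were 3.75% and 0.905%.

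**Figure D1:**
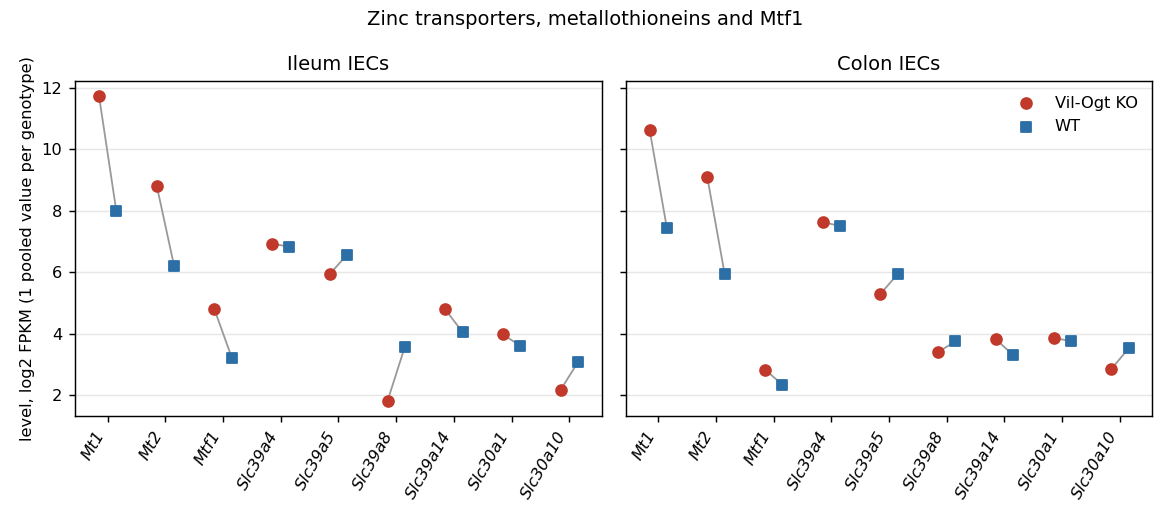
Level of each of the 9 members on the log2 FPKM scale, with 1 pooled value for Vil-Ogt KO (red circle, left) and 1 for WT (blue square, right), joined by a grey line, in ileum and colon. Mt1 and Mt2 are far higher in the KO in both tissues, Slc39a4 is level between genotypes, and Slc39a8 is lower in the KO ileum.

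Reads of 75 bases can tell the annotated transcripts of the 4 metallothionein genes apart from one another. Pseudogenes and other copies in the genome were not searched. In the annotated transcripts no stretch of 75 bases was shared between any pair of Mt1, Mt2, Mt3 and Mt4, and the closest stretches of Mt1 and Mt2 differed at 11 positions. An antisense gene, Gm45774, overlaps the Mt2 locus, and without knowledge of strand its reads and those of Mt2 cannot be told apart. The Mt1 locus (chr8:94179088-94180327, mm10, as all coordinates here) overlaps no other annotated gene, and Mt2 lies at chr8:94172617-94173567.

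The DNA before these genes is shown because metallothioneins are the textbook targets of MTF-1. Windows of 300 bases around the RefSeq start (250 before, 50 from it on; GRCm38.p6) were found for 7 of the 9 members and searched on both strands for the core of the metal response element, written as TGCACNC or TGCGCNC. At least 1 match was present in 25.7% of all 32851 mouse promoter windows, at least 3 in 1.97% and at least 4 in 0.517%. Mt2 had 4 matches and Mt1 had 3. Slc30a10 also had 3, of which a pair overlap on opposite strands, Slc30a1 had 2, Slc39a5 and Slc39a8 each had 1 in one of their windows, and Mtf1 had 0. The 250 bases before the start, all on the plus strand, are given for Mt1 (chr8:94178839-94179088), Mt2 (chr8:94172368-94172617) and Slc30a1 (chr1:191906531-191906780), with the matches that end before the start in capitals.
Mt1: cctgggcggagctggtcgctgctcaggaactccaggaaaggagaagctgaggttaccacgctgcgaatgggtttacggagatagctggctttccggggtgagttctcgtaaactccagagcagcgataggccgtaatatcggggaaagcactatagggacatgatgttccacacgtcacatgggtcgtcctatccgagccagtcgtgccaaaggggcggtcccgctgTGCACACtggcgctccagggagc
Mt2: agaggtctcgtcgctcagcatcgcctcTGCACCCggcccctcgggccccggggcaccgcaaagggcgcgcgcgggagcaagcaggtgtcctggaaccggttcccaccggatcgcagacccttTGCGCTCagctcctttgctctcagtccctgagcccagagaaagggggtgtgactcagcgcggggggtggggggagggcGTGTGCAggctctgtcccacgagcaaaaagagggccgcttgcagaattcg
Slc30a1: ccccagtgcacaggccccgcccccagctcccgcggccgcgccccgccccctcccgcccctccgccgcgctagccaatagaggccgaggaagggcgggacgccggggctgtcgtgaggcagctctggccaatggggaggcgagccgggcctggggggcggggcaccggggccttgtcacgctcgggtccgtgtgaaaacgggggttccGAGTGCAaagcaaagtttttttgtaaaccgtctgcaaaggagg

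The annotated starts of Mt1 and Mt2 lie before a TATA box, 128 bases before it in Mt1 and 89 in Mt2 (GENCODE vM21), so more matches fall inside the annotated first exon. Read up to the start codon, the DNA of Mt1 held 5 matches, all within 200 bases before the TATA box, and that of Mt2 held 7, of which 5 lay within 200 bases. These sites are shown with 6 bases on either side and the match in capitals. Each is named by the distance of its first base from the first base of the TATA box, which lies at position 94179210 of chromosome 8 for Mt1 and 94172753 for Mt2.
Mt1 -144: ccgctgTGCACACtggcgc
Mt1 -119: gagctcTGCACTCcgcccg
Mt1 -101: gaaaagTGCGCTCggctct
Mt1 -37: cctgctGGGTGCAaaccct
Mt1 -23: acccttTGCGCCCggactc
Mt2 -358: cgcctcTGCACCCggcccc
Mt2 -263: acccttTGCGCTCagctcc
Mt2 -185: gagggcGTGTGCAggctct
Mt2 -131: cgggtcGTGCGCAggccca
Mt2 -77: aagggcGTGTGCAggcggc
Mt2 -58: gggggcGCGTGCAtggtgc
Mt2 -24: agctttTGCGCTCgaccca

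Nearest to the TATA box, both genes carry a TGCGCNC match on the same strand at almost the same distance, -23 in Mt1 and -24 in Mt2. A match is a description of the letters and does not show that MTF-1 is bound there in these cells.

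**Figure D2:**
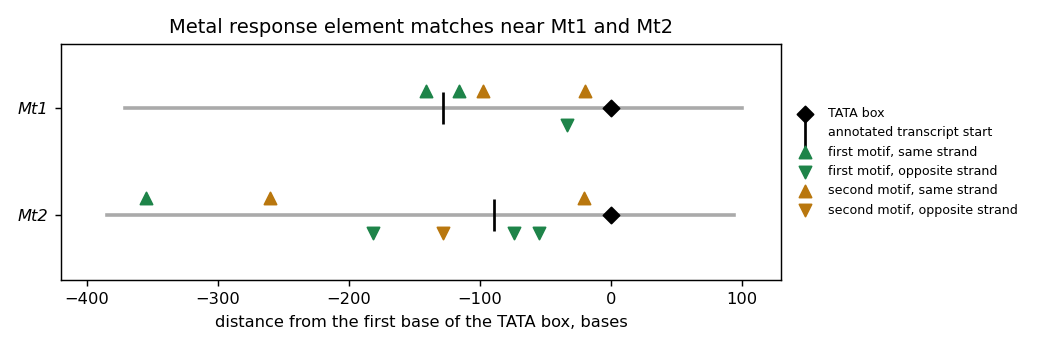
Position of metal response element matches near Mt1 and Mt2, plotted at the centre of each match in bases from the TATA box (black diamond), over the DNA that was read (grey line). Triangles pointing up are matches on the strand of the gene and triangles pointing down on the opposite strand, green for TGCACNC and brown for TGCGCNC. Mt1 has 5 matches and Mt2 has 7, and the vertical bar marks the annotated transcript start.

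Mt1 and Mt2 sit beside their paralogs Mt3, known as a brain metallothionein, and Mt4, known from stratified squamous epithelium, on chromosome 8. Mt4 was at 4.92 FPKM in Vil-Ogt KO and 0.500 FPKM in WT ileum (log2 difference 3.30), and at 8.88 FPKM in Vil-Ogt KO and 0.0533 FPKM in WT colon (7.38). Only 3 of 12814 named genes of the colon, Mt4 included, had a difference that large, but the WT level is close to 0, where a ratio is set by few reads. Mt3 was at 0.801 FPKM in Vil-Ogt KO and 1.95 FPKM in WT ileum (-1.28), and at 6.68 FPKM in Vil-Ogt KO and 1.97 FPKM in WT colon (1.76), the only metallothionein gene whose direction differed between tissues. The named genes next to the cluster did not share its size of difference. On the Mt4 side, Bbs2 had a difference of 0.23 (ileum) and 0.50 (colon). On the Mt1 side, the nuclear pore gene Nup93 had -1.02 (ileum) and -0.03 (colon).

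**Figure D3:**
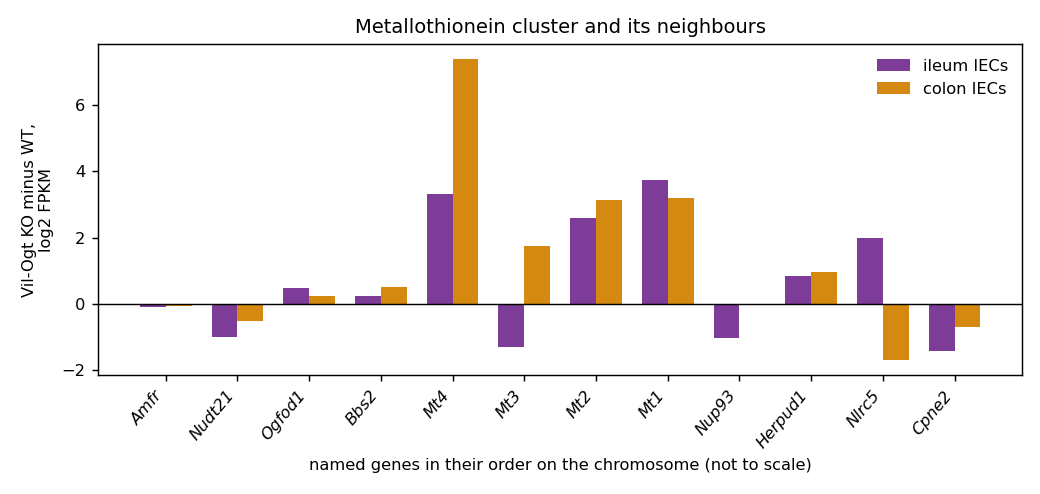
Vil-Ogt KO minus WT on the log2 FPKM scale for the 4 metallothionein genes and the 4 nearest named genes on each side, in chromosomal order, ileum in purple and colon in orange. Mt4, Mt2 and Mt1 have differences of 2.60 or more in both tissues, and the flanking genes lie between -1.69 and 1.98.

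Mtf1, the gene of the zinc sensor itself, was at 27.9 FPKM in Vil-Ogt KO and 9.38 FPKM in WT ileum, 2.97-fold higher (log2 difference 1.57). In the colon it was at 7.16 FPKM in Vil-Ogt KO and 5.10 FPKM in WT, 1.40-fold higher (0.49). The ileum value thus passed 2-fold and the colon value did not. The Mtf1 locus (chr4:124802548-124850730) reaches into 1110065P20Rik and Yrdc at its end, so part of its reads could belong to these genes.

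The importers differed in direction and size. Slc39a4 encodes ZIP4, which takes up dietary zinc at the apical membrane and whose loss in humans causes the zinc deficiency disease acrodermatitis enteropathica. Its locus (chr15:76612382-76616852) and that of Slc39a14 (chr14:70303309-70351424 in the ileum) overlap no other annotated gene. Slc39a4 was at 122 FPKM in Vil-Ogt KO and 115 FPKM in WT ileum (0.09), and at 199 FPKM in Vil-Ogt KO and 182 FPKM in WT colon (0.13). It was the most abundant transporter of the 9 members in all 4 groups, and its genotype values were nearly level. The enterocyte markers summed to 23863 FPKM in Vil-Ogt KO and 2161 FPKM in WT ileum. In the colon they summed to 1454 FPKM in Vil-Ogt KO and 936 FPKM in WT. The part of enterocyte content in the Slc39a4 values was not tested. Slc39a5 encodes ZIP5, an importer of the basolateral side. It was at 61.8 FPKM in Vil-Ogt KO and 95.7 FPKM in WT ileum (-0.63), and at 39.4 FPKM in Vil-Ogt KO and 61.8 FPKM in WT colon (-0.65), 1.55-fold and 1.57-fold lower in the KO. Slc39a5 (chr10:128395926-128401224 in the ileum) lies inside Ankrd52, which is on the other strand, and in the colon its locus starts at 128377123 and so spans more of that gene, which makes both levels uncertain.

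Slc39a8 and Slc39a14 encode ZIP8 and ZIP14, which carry manganese and iron as well as zinc. Slc39a8 was at 3.53 FPKM in Vil-Ogt KO and 12.0 FPKM in WT ileum, 3.39-fold lower (-1.76), the only member more than 2-fold lower in either tissue. Its locus (chr3:135825490-135888572 in the ileum) also covers 4933401H06Rik and other annotated transcripts. In the colon it was at 10.6 FPKM in Vil-Ogt KO and 13.5 FPKM in WT (-0.35). Slc39a14 went the other way and was at 27.9 FPKM in Vil-Ogt KO and 16.7 FPKM in WT ileum (0.74), and at 14.2 FPKM in Vil-Ogt KO and 9.92 FPKM in WT colon (0.52). In WT ileum the pair stood within 1.5-fold of each other, whereas in Vil-Ogt KO ileum Slc39a14 was far above Slc39a8.

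Of the exporters, Slc30a1 was nearly level between genotypes and Slc30a10 was lower in the KO. Slc30a1 encodes ZnT1, the zinc exporter of the plasma membrane and, like the metallothioneins, an MTF-1 target. It was at 15.9 FPKM in Vil-Ogt KO and 12.2 FPKM in WT ileum (0.38), and at 14.6 FPKM in Vil-Ogt KO and 13.6 FPKM in WT colon (0.10). Its factor of 1.30 (ileum) and 1.07 (colon) compares with 13.4 and 9.19 for Mt1. Slc30a10, a manganese exporter, was at 4.53 FPKM in Vil-Ogt KO and 8.46 FPKM in WT ileum (-0.90), and at 7.21 FPKM in Vil-Ogt KO and 11.6 FPKM in WT colon (-0.68). At 1.87-fold lower in the KO ileum it was just inside 2-fold, and in the colon its 1.6-fold lower level was the largest difference among the 6 member transporters. Slc30a1 (chr1:191894071-191913247) overlaps 1700034H15Rik and Slc30a10 (chr1:185429356-185468761 in the ileum) overlaps 9630028B13Rik and Gm2061, all on the other strand, so their levels are uncertain to that extent.

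Counted over the members, 3 of 9 (Mt1, Mt2 and Mtf1) were more than 2-fold higher in Vil-Ogt KO ileum, where 15.2% of 12629 named genes above 0 in both genotypes were, and 1 of 9 (Slc39a8) was more than 2-fold lower, against 15.0%. In colon IECs 2 of 9 (Mt1 and Mt2) were more than 2-fold higher, against 7.13% of 12814 genes, and 0 of 9 were lower, against 8.26%. The members had a median difference of 0.38 in ileum IECs and 0.13 in colon IECs, with a median over all named genes of -0.07 and -0.04. At 1.5-fold, 4 members were higher in Vil-Ogt KO ileum, against 23.5% of named genes, and 3 were lower, against 28.0%. In the colon 2 were higher, against 14.0%, and 2 lower, against 18.2%. Apart from Mt1, Mt2, Mtf1 and Slc39a8 in the ileum and Mt1 and Mt2 in the colon, the members lay between the 10th and 90th percentile of all named genes.

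**Figure D4:**
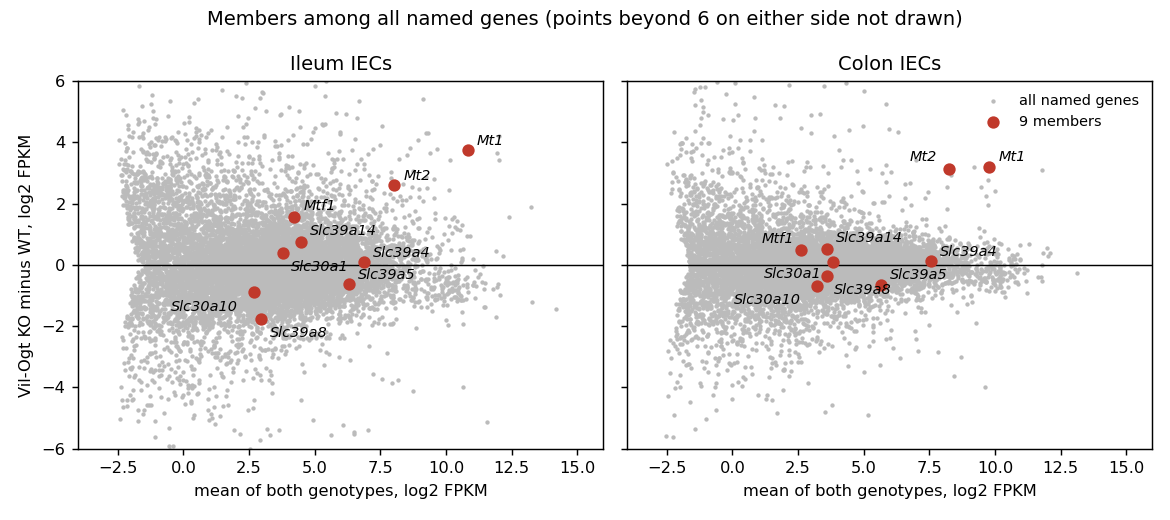
Vil-Ogt KO minus WT (log2 FPKM) against the mean level of both genotypes (log2 FPKM) for all named genes (grey) and the 9 members (red), in ileum and colon, with 1 point per gene. Mt1 and Mt2 lie at the upper right margin of the cloud in both tissues, and the transporters lie within it.

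The direction of the genotype difference was the same in ileum and colon for 9 of 9 members, a share of 100%, and for 70.5% of 11839 named genes present above 0 in both tables. Over the 25 genes of the zinc families and Mtf1 measured in both, members included, it was the same for 18 (72%), close to the share of all genes. The 9 members were chosen with earlier results of these data known. Some of their differences are near 0, where direction says little, as for Slc39a4 (0.09 in the ileum, 0.13 in the colon) and Slc30a1 (0.38 and 0.10). Whether both tissues came from the same mice is not given in the sources used here. The members whose differences were least alike were Slc39a8 (-1.76 in the ileum, -0.35 in the colon, ileum minus colon -1.41) and Mtf1 (1.57 and 0.49, ileum minus colon 1.08). A gap of more than 1 on the log2 scale was seen for 18.3% of all named genes, and for 2 of 9 members (22.2%). For Mt1 the ileum exceeded the colon by 0.54, and for Mt2 the colon exceeded the ileum by the same amount (-0.54). None of these gaps was tested. The ileum and colon tables were normalized separately, so levels across tissues are set side by side only. By FPKM, Mt1 ran in the order Vil-Ogt KO ileum, Vil-Ogt KO colon, WT ileum, WT colon, and Slc39a4 in the order Vil-Ogt KO colon, WT colon, Vil-Ogt KO ileum, WT ileum. Which neighbours in these orders differ beyond their spread cannot be said from pooled values.

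The whole families were counted in the same way, with the members included. Of 14 zinc importer genes 12 were measured in the ileum, and 0 were more than 2-fold higher and 4 more than 2-fold lower in Vil-Ogt KO (median difference -0.74), against 15.2% and 15.0% of all named genes. The lower genes were Slc39a3 (2.77 FPKM in Vil-Ogt KO, 10.6 FPKM in WT, difference -1.93), which works at the plasma membrane, Slc39a8, Slc39a13 (0.511 and 1.47 FPKM, -1.53), which works in the early secretory pathway, and Slc39a7 (44.6 and 97.0 FPKM, -1.12), which releases zinc from the endoplasmic reticulum. The value of Slc39a7 is that of a locus shared with H2-Ke6, so the genes cannot be separated. In the colon 13 importer genes were measured, with 0 higher and 3 lower past 2-fold (median -0.32), against 7.13% and 8.26% of all named genes. They were Slc39a3 (4.47 FPKM in Vil-Ogt KO, 9.51 FPKM in WT, -1.09), Slc39a13 (1.11 and 2.68 FPKM, -1.27) and Slc39a6 (0.207 and 0.774 FPKM, -1.90), the last under 1 FPKM in both genotypes. Slc39a3 and Slc39a13 were thus past 2-fold in both tissues.

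Of 10 zinc exporter genes 8 were measured in each tissue, and 1 was more than 2-fold higher and 0 lower in Vil-Ogt KO in ileum and in colon (median -0.03 and -0.08). A share of 1 in 8 is near the 15.2% of all named genes that were higher in the ileum, and the colon share was 7.13%. It was the same gene, Slc30a2, which loads zinc into secretory vesicles and in mice serves Paneth cell granules. Slc30a2 was at 19.8 FPKM in Vil-Ogt KO and 4.99 FPKM in WT ileum (1.99), and at 0.742 FPKM in Vil-Ogt KO and 0.188 FPKM in WT colon (1.98). Both colon values are under 1 FPKM, where a ratio is set by few reads. Paneth cell markers summed to 9781 FPKM in Vil-Ogt KO and 1136 FPKM in WT ileum, and to 289 and 93.5 FPKM in the colon. Most of the ileum sum was Defa24 (7697 FPKM in Vil-Ogt KO, 719 FPKM in WT). Most of the colon sum was Nupr1 (142 FPKM in Vil-Ogt KO, 54.2 FPKM in WT) and Pla2g2a (112 and 2.97 FPKM). Defa24 had only 5.94 FPKM in Vil-Ogt KO and 1.61 FPKM in WT colon. The study counted fewer Paneth cells and measured lower defensin and Ang4 mRNA in Vil-Ogt KO ileum tissue, with Lyz1 mRNA unchanged. The ileum IEC values here differ from that, with 12 of 13 Paneth cell markers higher and 1 lower in the KO. Defa5 had 58.9 FPKM in Vil-Ogt KO and 2.91 FPKM in WT, and Lyz1 had 935.8 and 55.3 FPKM. Ang4 was nearly level (124.5 and 120.3 FPKM). The part of Paneth cells in the Slc30a2 values was not tested. The transporters of the Golgi and early secretory pathway Slc30a5, Slc30a6 and Slc30a7 differed in the ileum by -0.34, -0.76 and -0.57, and in colon by -0.14, -0.25 and 0.04. Of the 4 metallothionein genes, 3 were more than 2-fold higher and 1 lower in the ileum (median 2.95), against 15.2% and 15.0% of all named genes. In the colon 4 were more than 2-fold higher (median 3.17), against 7.13%. Mt3 in Vil-Ogt KO ileum (0.801 FPKM) and Mt4 in WT ileum and colon (0.500 and 0.0533 FPKM) were under 1 FPKM.

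**Figure D5:**
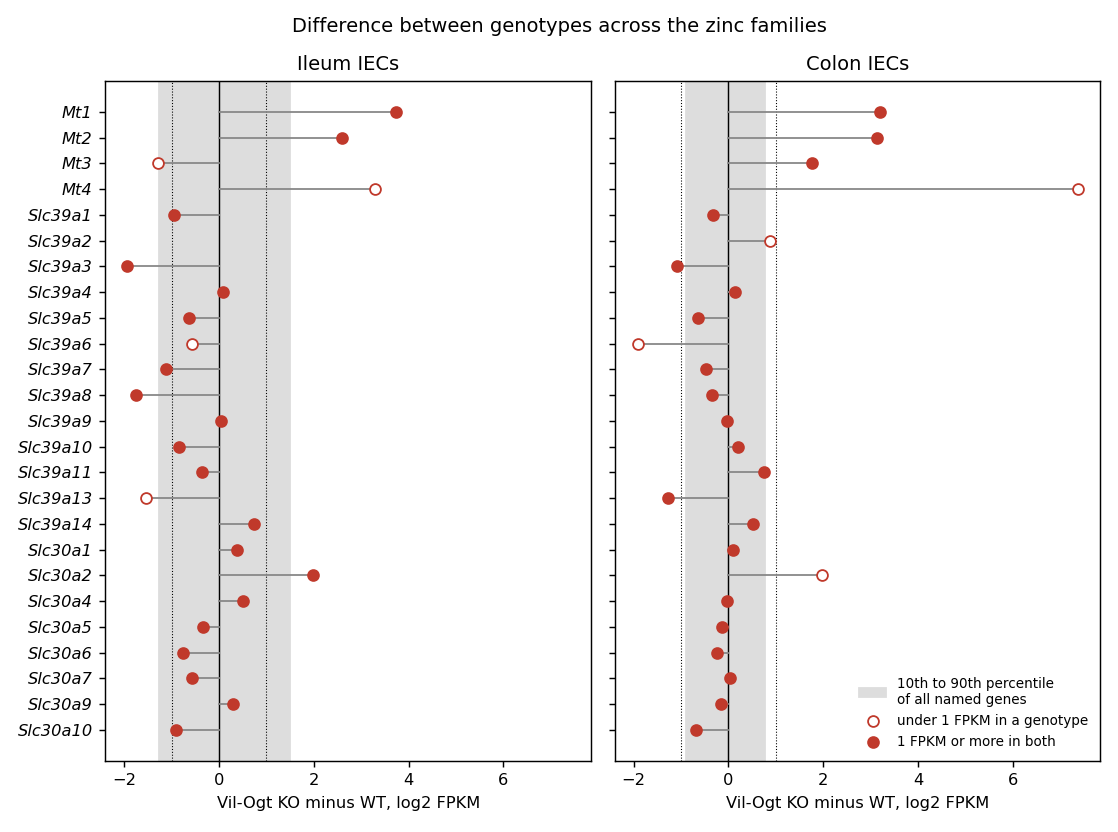
Vil-Ogt KO minus WT on the log2 FPKM scale for each measured metallothionein, zinc importer and zinc exporter gene, in ileum and colon. Open circles are genes under 1 FPKM in a genotype, the grey band spans the 10th to 90th percentile of all named genes (-1.27 to 1.49 in the ileum, -0.90 to 0.77 in the colon), and dotted lines mark 2-fold. Mt1, Mt2, Mt4 and Slc30a2 lie to the right of the band in both tissues, and Slc39a3 and Slc39a13 to the left.

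Glucocorticoids and IL-6 acting through STAT3 are known to raise metallothionein mRNA, so genes that answer to them were listed beside the members. Of 10 measured glucocorticoid-responsive genes, 6 were more than 2-fold higher and 2 lower in Vil-Ogt KO ileum (median 1.31), and 3 of 13 were higher and 0 lower in the colon (median 0.37). Of those higher in the colon, Scnn1b (1.18 FPKM in Vil-Ogt KO, 0.395 FPKM in WT) and Scnn1g (0.642 and 0.103 FPKM) were under 1 FPKM in WT. At such levels a ratio is set by few reads. The shares over all named genes were 15.2% (higher) and 15.0% (lower) for the ileum, and 7.13% and 8.26% for the colon. The phosphatase gene Dusp1 was at 4.47 FPKM in Vil-Ogt KO and 1.07 FPKM in WT ileum (2.06), and at 9.51 FPKM in Vil-Ogt KO and 4.2 FPKM in WT colon (1.18). Klf9 went the other way in both tissues. It was at 5.94 FPKM in Vil-Ogt KO and 13.5 FPKM in WT ileum (-1.19), and at 11.7 and 21.7 FPKM in the colon (-0.89). Hsd11b2, which encodes the enzyme that inactivates glucocorticoid, was at 10.5 FPKM in Vil-Ogt KO and 75.1 FPKM in WT ileum (-2.84). Its colon values were 139 FPKM in Vil-Ogt KO and 165 FPKM in WT (-0.25). Of 13 acute-phase and STAT3-responsive genes, 4 were more than 2-fold higher and 3 lower in the ileum (median 0.28), and 1 higher and 1 lower in the colon (median -0.04), the colon counts being near those shares of all genes. The feedback inhibitor gene Socs3 was at 17.6 FPKM in Vil-Ogt KO and 5.39 FPKM in WT ileum (1.71) and at 6.41 FPKM in Vil-Ogt KO and 3.53 FPKM in WT colon (0.86). Saa1, a serum amyloid gene, was at 22.6 FPKM in Vil-Ogt KO and 117 FPKM in WT ileum (-2.37) and at 288 FPKM in Vil-Ogt KO and 596 FPKM in WT colon (-1.05). The part of either signal in the metallothionein values was not tested.

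Genes with a pattern like that of a member were looked for among 9339 named genes at 1 FPKM or more in all 4 groups, by the Euclidean distance between the 4 log2 values after each gene was centred on its own mean. Closest to Mt1 were the locus of Gspt1 and Mir1945 (distance 0.811), with differences of 2.93 (ileum) and 3.43 (colon), Cidec (0.845), with 4.60 and 2.39, and Trim15 (0.955), with 2.79 and 2.26. Slc39a4 and Slc30a1 had much closer neighbours, Zbtb48, Tmbim1 and Pld3 for Slc39a4 (0.046 to 0.061) and Rnf41, Rc3h2 and Usp6nl for Slc30a1 (0.030 to 0.043). With 4 values from separately normalized tables, likeness of this kind is only a description.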

How the data were processed

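IEC RNA of 11 libraries was sequenced with single reads of 75 bases. According to the methods and the submitters' processing notes, the authors trimmed reads with Trimmomatic, aligned them to mm10 with TopHat 1.0.0 and Bowtie, and Cufflinks is named among the tools. RNA of the samples was combined in equal parts before library preparation, and the number of mice behind each library is not given in the sources used here. The authors deposited 1 table per tissue with a log2 FPKM value for each genotype and locus, pooled over libraries, in which 0 FPKM is listed at -10. Depth per library is not held in such values, so no interval could be given. The tables also hold the authors' log2 ratio, q-value and mark of significance for each locus, which were not used here. Scaling by total makes FPKM depend on the rest of the RNA, and FPKM of short transcripts such as metallothioneins depends on the length model.

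Unnamed loci (ileum 3505, colon 4815) were left out, and where a name had several loci, that of highest mean level was used. The difference was Vil-Ogt KO minus WT in log2 FPKM, counted as past the fold above 1 or below -1. The step was run on simulated tables with planted differences well past the fold and small noise. That run checks the code only and says nothing of the calls in the real values. With 1 pooled value per genotype no test of the FPKM values was made. All 9 members are named. Other zinc family genes could be named when measured. At most 3 genes of each further list and tissue were named, with the largest absolute difference at a mean of at least 1 FPKM. The other tissue's value was added for Steap2, Steap4, Hsd11b2 and Klf9 after it was seen. Defa24, Nupr1, Lyz1, Ang4, Scnn1b and Scnn1g were also named after their values were seen. Flanking genes of the metallothionein cluster and the TATA box were added after values were seen. The members and lists were chosen with earlier results of these data known. Alternatives were pseudocounts of 1 and 0.1, a minimum mean of 1 FPKM, folds of 1.5 and 4, centring on the median and summing over loci. Promoters came from RefSeq (GRCm38.p6) and transcripts from GENCODE vM21, the assembly of mm10. Python 3.11.15, NumPy 2.4.6, pandas 2.3.3 and matplotlib 3.10.9 were used.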

Additional observations from a re-analysis of the deposited data

How the results depend on the processing

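The count of members past the fold depends on the fold. In the ileum 4 members passed 2-fold, 7 passed 1.5-fold and 2 passed 4-fold, and in the colon 2 passed 2-fold, 4 passed 1.5-fold and 2 passed 4-fold. Of all named genes, 15.2% were higher and 15.0% lower past 2-fold in the ileum, and 7.13% and 8.26% in the colon. Past 1.5-fold the shares were 23.5% and 28.0% in the ileum, and 14.0% and 18.2% in the colon. No such share was computed at 4-fold. Under both pseudocounts, the minimum level, centring and summing over loci the counts were 4 and 2 as before. Under these alternatives 117 values of single members were computed, some of them gaps between ileum and colon. The gaps were not run at a pseudocount of 0.1 or at the minimum level. None of the values changed sign, and the largest shift was 0.24 on the log2 scale. For a difference between genotypes most of this was fixed in advance. A pseudocount cannot change its sign, and each member had 1 locus and a mean above 1 FPKM. Only centring could have changed such a sign. No paired analysis was possible because the tables hold 1 pooled value per genotype, and for the same reason no library could be left out. The ileum values rest on 2 WT libraries that could not be examined one by one.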

Other observations

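Metallothioneins also bind copper, and genes of copper handling were listed for that reason. Of 12 measured in the ileum, 0 were more than 2-fold higher and 3 more than 2-fold lower in Vil-Ogt KO (median log2 difference 0.22), and of 11 in the colon 1 was higher and 0 lower (0.29). The shares over all named genes were 15.2% (higher) and 15.0% (lower) for the ileum, and 7.13% and 8.26% for the colon, so 1 of 11 is near the share of all genes. Steap3, a metalloreductase gene, was at 1.65 FPKM in Vil-Ogt KO and 18 FPKM in WT ileum (-3.45), and at 11.2 FPKM in Vil-Ogt KO and 22.3 FPKM in WT colon (-0.99). Steap2, of the same family, was at 1.68 FPKM in Vil-Ogt KO and 3.63 FPKM in WT ileum (-1.11), and at 2.31 FPKM in Vil-Ogt KO and 2.91 FPKM in WT colon (-0.33). Steap4 was at 0.232 FPKM in Vil-Ogt KO and 0.629 FPKM in WT ileum (-1.44), and in the opposite direction at 11.2 FPKM in Vil-Ogt KO and 1.91 FPKM in WT colon (2.56). Slc31a2, a copper transporter gene, was at 2.25 FPKM in Vil-Ogt KO and 4.26 FPKM in WT ileum (-0.92), and at 5.62 FPKM in Vil-Ogt KO and 8.63 FPKM in WT colon (-0.62).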
